A study of Oryzias latipes with 18 samples.

Results

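The sperm-egg fusion genes examined here are dcst1, dcst2 and pgap1, taken as every row of the testis table whose gene name is dcst1, dcst2, pgap1, spaca6 or izumo1. These 5 names matched 3 of the 22941 genes in the table (ENSORLG00000028335 for dcst1, ENSORLG00000025850 for dcst2 and ENSORLG00000018243 for pgap1), and all 3 were among the 18792 genes whose mean was at least 10 normalized reads. The names spaca6 and izumo1 matched no row, and these genes were not analysed here.

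Testes came from medaka (Oryzias latipes) of a pair of lineages. The control lineage had no ancestral exposure, and the BPA lineage descended from ancestors that met bisphenol A (BPA, a plastic monomer with estrogenic activity) at 10 µg/L as embryos, 4 generations before the fish studied. Males of each lineage were kept for 21 days at 0, 0.002 or 0.02 mg/L of perfluorooctane sulfonate (PFOS, a long-lived fluorinated surfactant), called here without PFOS, the low dose and the high dose. Each of the 6 groups of lineage and dose had 3 biological replicates, so there were 18 libraries, and the labels give no age, batch or number of fish per library. The question posed by the design is whether PFOS affects the testis differently in fish with and without ancestral BPA exposure.

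Fertilization ends with the binding and fusion of the sperm and egg membranes. The products of dcst1 and dcst2 are multi-pass membrane proteins of sperm with a DC-STAMP-like domain; in mice and zebrafish, loss of these genes severely impairs male fertility, and zebrafish sperm that lack them fail to bind the egg membrane. The product of pgap1 removes an acyl chain from the inositol of glycosylphosphatidylinositol (GPI) anchors in the endoplasmic reticulum, a step in the maturation of GPI-anchored proteins, and male mice without it are poorly fertile. It is therefore a general enzyme grouped with the other two by its fertility phenotype, not a fusion protein. GPI-anchored proteins themselves act in gamete recognition, such as Bouncer on the fish egg. Teleost sperm have no acrosome and reach the egg membrane through a canal in the egg coat.

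The libraries held 23.7 to 47.7 M reads. Markers of the tissue were present in all 17 libraries compared: the Sertoli and somatic factor gsdf had 15527 to 39868 normalized reads, the germ cell gene ddx4 21983 to 49655 and the meiotic recombinase dmc1 6247 to 16044. Replicate 2 of the control lineage at the low dose stood apart. In it all 11 tested genes of an oocyte and ovary list were above every other library, and 28 of 29 genes of a spermatid and flagellum list were below every other library. The mean of at least 10 normalized reads asked of tested genes was taken over all 18 libraries, this one included. An oocyte gene high only here could thus pass, so the 11 of 11 is a description. That library was set apart by the rule that chose the genes, and because earlier results of these data had shown egg-coat transcripts in it. The oocyte list is therefore no separate ground for setting it apart. Its values are given separately, so the control lineage at the low dose had n = 2 in the comparisons. Values below are normalized reads, that is counts scaled by a size factor for each library, and they are not per length, so levels are compared within a gene only.

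None of the 3 genes passed the test in any of the 9 comparisons of dose and lineage. Of 27 tests by limma, 0 had an adjusted p under 0.05, 2 had an unadjusted p under 0.05 and the smallest adjusted p was 0.118. The 2 were pgap1 at the low dose in the control lineage and dcst1 for the interaction of lineage and PFOS at the high dose. In these comparisons 26.7% and 31.1% of all genes tested had an unadjusted p under 0.05 by limma. With edgeR and with DESeq2 on the recovered reads 0 of 27 passed as well, and 1 of 27 had an unadjusted p under 0.05 with each tool. Adjusted p-values are Benjamini-Hochberg values over all genes tested in a comparison.

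**Figure D1:**
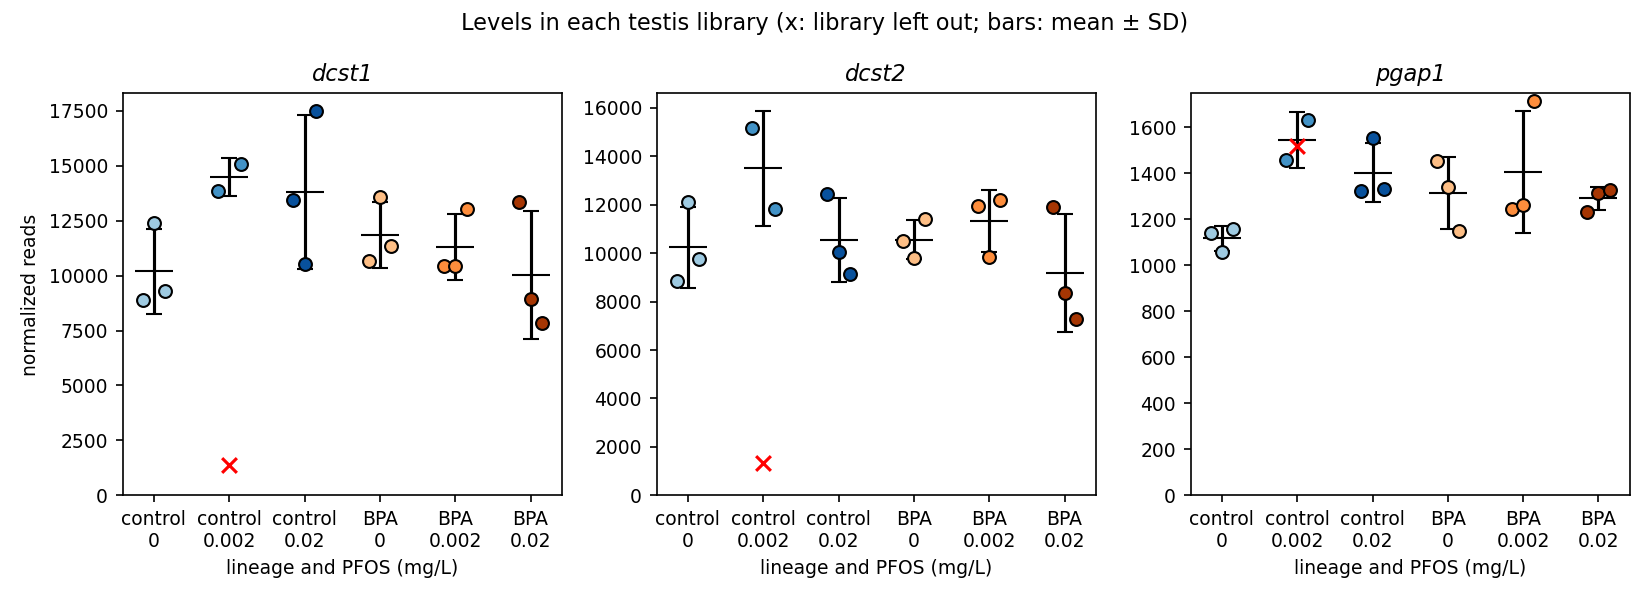
Normalized reads of dcst1, dcst2 and pgap1 in every library (points), by lineage and PFOS dose in mg/L, with the mean and SD of each group over the libraries compared; the red cross is replicate 2 of the control lineage at the low dose, which is not in that mean. The cross lies at 1360 and 1336 for dcst1 and dcst2, below all other points, and at 1518 for pgap1, among them on this scale but below them per M reads.

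The membrane protein gene dcst1 was abundant in the testis, with a mean of 11798 normalized reads over the 17 libraries, which placed it at rank 160 of the 22941 genes by mean reads. In the control lineage it had 8896, 12392 and 9283 normalized reads without PFOS, 13862 and 15087 at the low dose (replicates 1 and 3), and 13437, 10525 and 17485 at the high dose. In the BPA lineage it had 10661, 13562 and 11358 without PFOS, 10436, 10441 and 13020 at the low dose, and 13347, 8920 and 7858 at the high dose. Both libraries of the control lineage at the low dose were thus above all 3 without PFOS. A lack of overlap in either direction was found there for 48.7% of all genes tested. The other PFOS groups overlapped with the unexposed fish of their lineage.

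For dcst1 the order of the group means, from the highest, was the control lineage at the low dose (14475 ± 866, SD, n = 2), the control lineage at the high dose (13816 ± 3496, n = 3), the BPA lineage without PFOS (11860 ± 1514, n = 3), the BPA lineage at the low dose (11299 ± 1490, n = 3), the control lineage without PFOS (10190 ± 1916, n = 3) and the BPA lineage at the high dose (10042 ± 2911, n = 3). Every pair of neighbours in this order overlapped. The highest of the 17 libraries had 2.23 times the reads of the lowest.

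Its partner dcst2 had a mean of 10737 normalized reads over the 17 libraries. In the control lineage it had 8865, 12110 and 9743 normalized reads without PFOS, 15175 and 11830 at the low dose, and 12464, 10041 and 9129 at the high dose. In the BPA lineage the values were 10485, 9811 and 11398 without PFOS, 11940, 9845 and 12180 at the low dose, and 11907, 8335 and 7275 at the high dose. Each PFOS group overlapped with the unexposed fish of its lineage, and each pair of groups that are neighbours in the order of means overlapped. The means fell in the order control lineage at the low dose (13503 ± 2366, n = 2), BPA lineage at the low dose (11322 ± 1284, n = 3), BPA lineage without PFOS (10565 ± 796, n = 3), control lineage at the high dose (10545 ± 1724, n = 3), control lineage without PFOS (10239 ± 1679, n = 3) and BPA lineage at the high dose (9173 ± 2427, n = 3). As with dcst1, the control lineage at the low dose had the highest mean of the 6 groups and the BPA lineage at the high dose the lowest.

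The GPI deacylase gene pgap1 had a mean of 1335 normalized reads over the 17 libraries, and the highest library had 1.62 times the reads of the lowest. In the control lineage it had 1142, 1056 and 1156 normalized reads without PFOS, 1457 and 1631 at the low dose, and 1324, 1553 and 1333 at the high dose. In the BPA lineage it had 1456, 1340 and 1148 without PFOS, 1245, 1261 and 1714 at the low dose, and 1234, 1313 and 1328 at the high dose. All 5 PFOS libraries of the control lineage were above all 3 without PFOS. That pattern was looked for after the values were seen, and 14.8% of all genes tested show it. It ended when reads were taken per M of all reads in a library, where the highest unexposed library had 57.3 and the lowest PFOS library 55.3.

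For pgap1 the group means ran from 1544 ± 123 (n = 2) in the control lineage at the low dose through 1407 ± 266 (n = 3) in the BPA lineage at the low dose, 1403 ± 130 (n = 3) in the control lineage at the high dose, 1315 ± 155 (n = 3) in the BPA lineage without PFOS and 1291 ± 50.5 (n = 3) in the BPA lineage at the high dose to 1118 ± 53.9 (n = 3) in the control lineage without PFOS. Neighbours in this order overlapped, except that the control lineage without PFOS lay wholly below the BPA lineage at the high dose. That pair was not a planned comparison and was met only by ordering the means after the values were seen. The share of all genes without overlap between these groups was not counted, so no weight is given to it. The SD within groups on the log2 scale was 0.15 for pgap1, 0.24 for dcst2 and 0.28 for dcst1, against a median of 0.41 over all genes tested. Of those genes 97.1% had a larger SD than pgap1, 82.5% a larger one than dcst2 and 73.1% a larger one than dcst1.

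**Figure D2:**
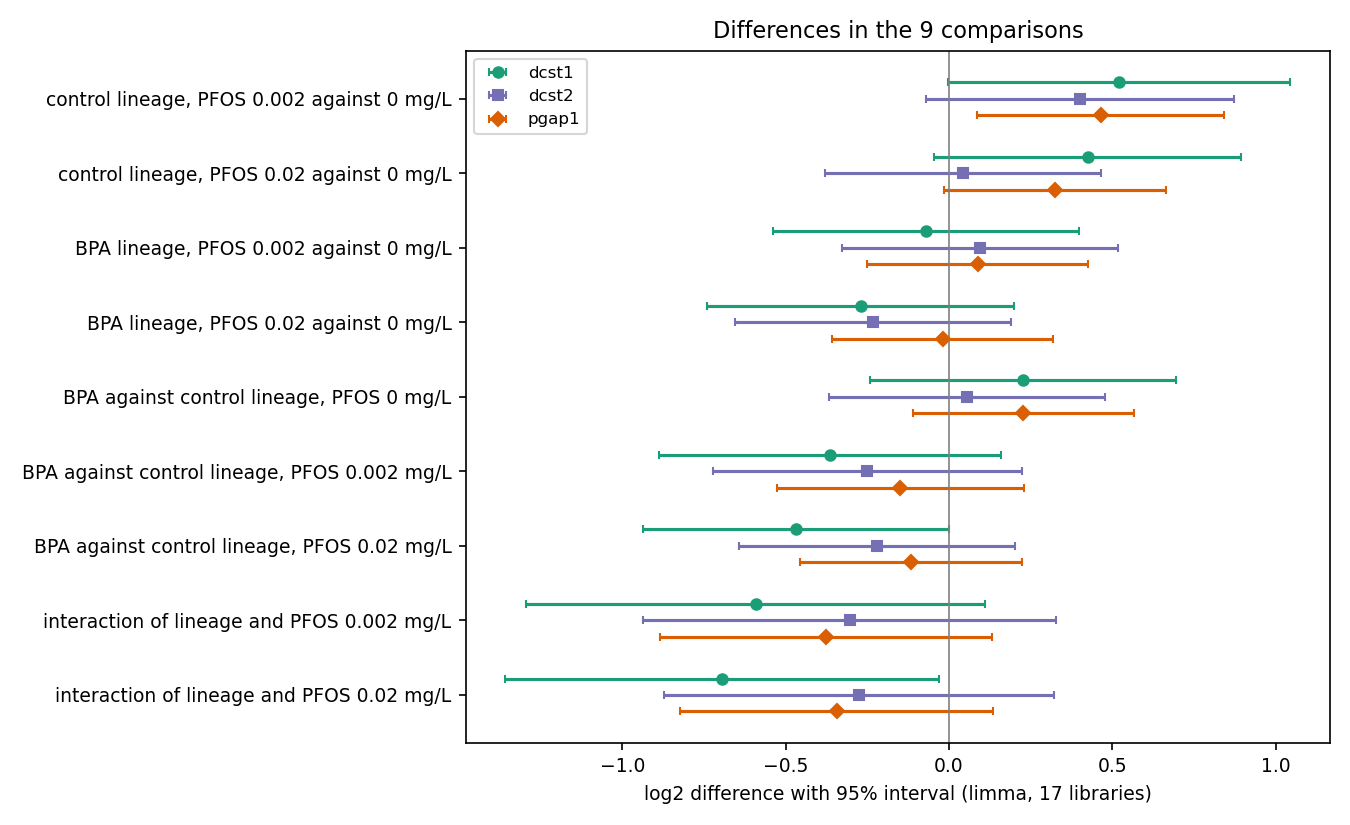
Log2 difference (x axis) of dcst1, dcst2 and pgap1 in each of the 9 comparisons (y axis), from limma on 17 libraries, with 95% intervals as bars. The intervals of pgap1 at the low dose in the control lineage and of dcst1 for the interaction at the high dose leave out 0, and no adjusted p was under 0.05.

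The first question was what PFOS did in the control lineage. At the low dose the log2 differences from unexposed fish were 0.52 ± 0.25 (SE) for dcst1, 0.40 ± 0.22 for dcst2 and 0.46 ± 0.18 for pgap1, with adjusted p = 0.189, 0.256 and 0.118 by limma. The 95% intervals ran from -0.003 to 1.05 for dcst1, from -0.07 to 0.87 for dcst2 and from 0.09 to 0.84 for pgap1. No member was called, where 4.59% of all genes tested were. The libraries of dcst1 and pgap1 did not overlap between these doses, as was true of 48.7% of all genes. With replicate 2 at the low dose counted, the differences of dcst1 and dcst2 turned to -0.62 ± 0.61 and -0.71 ± 0.59 (adjusted p = 0.489 and 0.408), and that of pgap1 was 0.46 ± 0.19 (adjusted p = 0.11).

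At the high dose in the control lineage the log2 differences were 0.42 ± 0.22 for dcst1 (adjusted p = 0.2) and 0.32 ± 0.16 for pgap1 (adjusted p = 0.175, limma). That of dcst2 was 0.04 ± 0.20 (adjusted p = 0.904), a value whose sign changed under TMM scaling. The intervals were -0.04 to 0.89, -0.01 to 0.66 and -0.38 to 0.46 in the same order. None of the 3 members was called, against 12.8% of all genes. The libraries of pgap1 did not overlap between these doses, which held for 36.7% of genes. Both doses were compared with the same 3 libraries without PFOS, so their values are not independent.

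Levels of some marker lists differed between those control libraries and other libraries. The mean log2 level of 24 pancreas, gut and kidney genes, relative to the mean of the 17 libraries, was 3.29, 0.61 and 2.17 in replicates 1, 2 and 3 of the control lineage without PFOS and at most 0.19 in the 14 other libraries compared; 6 of the 24 genes were at 0 in at least 1 of the 17. The Sertoli cell list (10 genes) was at 0.36 to 0.91 in these 3 libraries and at -1.22 to -0.21 in the 5 PFOS libraries of the control lineage. In the BPA lineage it was at -0.57 to 0.65, which overlapped with the 3. The Leydig and steroid list (7 genes) was at 0.36 to 0.68 in these 3 libraries. It was at -1.80 to 0.25 at the low dose and at -0.41 to 0.10 at the high dose of the control lineage. In the BPA lineage it was at 0.26 to 0.77 without PFOS, -0.32 to -0.13 at the low dose and -0.57 to 0.51 at the high dose. In the control lineage the oocyte and ovary list (11 genes) was at -1.11 to -0.46 without PFOS, -0.65 to -0.25 at the low dose and -0.05 to 2.41 at the high dose. In the BPA lineage it was at -0.38 to 0.12 without PFOS, wholly above the unexposed control lineage. It was at -0.86 to -0.19 at the low dose and -0.27 to 1.31 at the high dose of the BPA lineage. The spermatid and flagellum list (29 genes) of the control lineage was at -0.12 to 0.26 without PFOS. These levels overlapped with 0.18 to 0.30 at the low dose and with -0.09 to 0.11 at the high dose. In the BPA lineage this list was at -0.25 to -0.23 without PFOS, wholly below the unexposed control lineage. With PFOS the BPA lineage was at -0.05 to 0.08 at the low dose and at -0.36 to 0.52 at the high dose. Between the unexposed lineages limma called 0 of its genes higher and 2 lower, where 10.3% of all genes were called. In bulk testis, more transcript per cell and more cells of a kind cannot be told apart, and the part of these markers in the levels of the 3 genes was not tested.

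In the BPA lineage at the low dose the differences were -0.07 ± 0.22 for dcst1, 0.10 ± 0.20 for dcst2 and 0.09 ± 0.16 for pgap1, with adjusted p from 0.893 to 0.942 by limma, and the sign for dcst1 and pgap1 changed when a single library was left out. The intervals lay within -0.54 and 0.52. No gene of the whole table was called (0%), with 1795 genes at an unadjusted p under 0.05, 0 called by edgeR and 23 by DESeq2. Libraries did not overlap for 20.8% of all genes in this comparison, and overlapped for all 3 members.

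At the high dose in the BPA lineage dcst1 and dcst2 had negative differences, -0.27 ± 0.22 and -0.23 ± 0.20 (adjusted p = 0.54 and 0.56, limma), and replicates 2 and 3 were below all 3 unexposed libraries for both genes. Replicate 1 was inside the unexposed range for dcst1 and above it for dcst2. The value of pgap1 was -0.02 ± 0.16 (adjusted p = 0.962), and its sign changed under TMM scaling. The intervals ran from -0.74 to 0.20 for dcst1, from -0.66 to 0.19 for dcst2 and from -0.36 to 0.32 for pgap1. In this comparison 0.41% of all genes were called and 19.3% did not overlap, and no member was among either.

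Ancestral exposure was examined by setting the lineages against each other at each dose. Without PFOS the BPA lineage differed from the control lineage by 0.23 ± 0.22 for dcst1, 0.05 ± 0.20 for dcst2 (a sign that changed under TMM scaling) and 0.23 ± 0.16 for pgap1, with adjusted p = 0.529, 0.884 and 0.366 by limma. Of all genes 10.3% were called there and 33.5% did not overlap, and no member was among either. The pgap1 values of the lineages met only narrowly, since replicate 3 of the BPA lineage (1148) lay between the control values of 1142 and 1156.

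With PFOS all 3 genes were lower in the BPA lineage by their fitted values, without passing. At the low dose the differences were -0.36 ± 0.25 for dcst1, -0.25 ± 0.22 for dcst2 and -0.15 ± 0.18 for pgap1 (adjusted p = 0.726, 0.811 and 0.865, limma); those of dcst1 and dcst2 became 0.77 and 0.86 with the library set apart counted. All 3 BPA libraries of dcst1 were below both control libraries at this dose, a lack of overlap found in 33.3% of genes. Over all genes limma called 0% here, with 1583 at an unadjusted p under 0.05, 0 called by edgeR and 118 by DESeq2. At the high dose the differences were -0.47 ± 0.22, -0.22 ± 0.20 and -0.12 ± 0.16 for dcst1, dcst2 and pgap1 (adjusted p = 0.414, 0.701 and 0.812), where 0.0213% of all genes were called and 11.2% did not overlap, and no member was among either.

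The interaction asks whether the PFOS response differed between the lineages, and is the BPA lineage's response minus that of the control lineage. At the high dose it was -0.69 ± 0.31 for dcst1 (95% interval -1.36 to -0.03, unadjusted p = 0.041, adjusted p = 0.142, limma), -0.28 ± 0.28 for dcst2 (adjusted p = 0.541) and -0.34 ± 0.23 for pgap1 (adjusted p = 0.317). No member was called, where 14.2% of all genes were, and 31.1% of all genes had an unadjusted p under 0.05. Leaving out replicate 1 of the BPA lineage at the high dose gave -0.92 for dcst1 with an adjusted p of 0.0479, and the adjusted p over all alternatives ran from 0.0479 to 0.736. At the low dose the interaction was -0.59 ± 0.33 for dcst1, -0.30 ± 0.30 for dcst2 and -0.38 ± 0.24 for pgap1 (adjusted p = 0.29, 0.555 and 0.351), and 0.899% of all genes were called. With the library set apart counted, the values of dcst1 and dcst2 turned to 0.55 and 0.80. All of these use the same 3 control libraries without PFOS as the control-lineage responses.

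**Figure D3:**
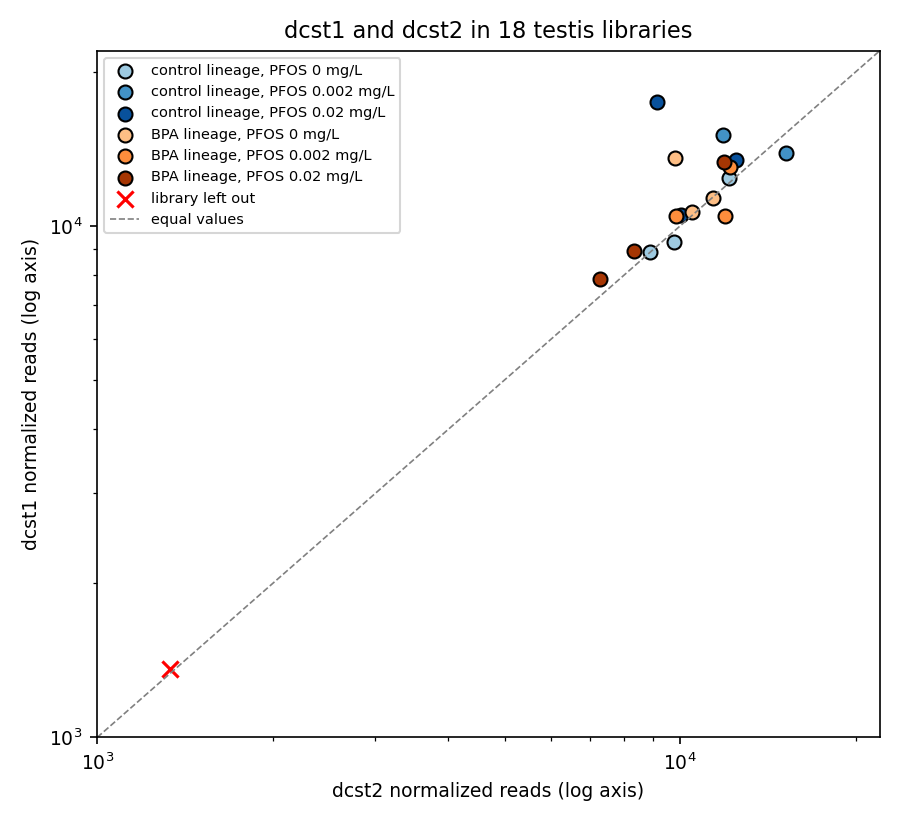
Normalized reads of dcst1 (y axis, log scale) against dcst2 (x axis, log scale) in all 18 libraries, coloured by lineage and dose, with a dashed line of equal values and a red cross for the library set apart. Replicate 3 of the control lineage at the high dose lies farthest above the line, at 17485 for dcst1 and 9129 for dcst2.

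In the RefSeq annotation of medaka (ASM223467v1) dcst1 and dcst2 are immediate neighbours whose annotated spans overlap, and dcst1 also overlaps adam15 on its other side. Reads from the shared stretches cannot be assigned with certainty, because the strand setting of the counting is not given in the sources used here. The number of dcst1 reads per dcst2 read does not depend on the size factors. Its median over 18 libraries was 1.05, and 17 of them lay between 0.874 and 1.38. Replicate 3 of the control lineage at the high dose stood outside with 1.92, where dcst1 had the highest value of the 17 libraries and dcst2 one of the lower values.

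Across the 17 libraries the log2 levels of dcst1 and dcst2 gave Pearson's r = 0.588 (permutation p = 0.0127, adjusted p = 0.0761) and Spearman's rho = 0.542 (permutation p = 0.0267, adjusted p = 0.16), adjusted over a family of 6 relations. Without the libraries farthest from the median of dcst1, which are replicate 3 of the control lineage and replicate 3 of the BPA lineage at the high dose, r was 0.752 over 15 libraries (permutation p = 0.00129, adjusted p = 0.00774). Taken as deviations from the group means over the 17 libraries, r was 0.469 (permutation p = 0.0574, adjusted p = 0.345). That permutation moved the deviations freely between groups, although they sum to 0 within each group, so its p may be too small. The labels name no batch within which to repeat the correlation. The level of pgap1 gave r = 0.318 with dcst1 and 0.181 with dcst2 (rho = 0.441 and 0.176), with adjusted permutation p of 0.636 and 0.75 for r and of 0.173 and 0.743 for rho; without the 2 libraries farthest from the median on the x axis r was 0.419 and 0.137.

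The same family held the level of the spermatid and flagellum list, which gave r = -0.000472 with dcst1, 0.175 with dcst2 and 0.0652 with pgap1 (rho = 0.11, 0.429 and 0.0858), with adjusted permutation p from 0.75 to 0.998 for r and from 0.173 to 0.743 for rho. Without replicate 3 of the BPA lineage at the high dose and replicate 1 of the control lineage at the low dose, the libraries farthest from the list's median, r with dcst2 was 0.624 over 15 libraries (permutation p = 0.013, adjusted p = 0.039), with dcst1 0.323 and with pgap1 -0.0149.

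The genes whose levels ran most like each member were taken among 11307 others with a name and a mean of at least 50 normalized reads, by Pearson's r of log2 levels over the 17 libraries. Because they are the highest of so many, these values are a description. For dcst1 they were TMEM184C (r = 0.95), nosip (0.946), strap (0.946), the deadenylase subunit cnot3b (0.93) and rbm41 (0.928). Of these, TMEM184C, nosip and rbm41 had their highest value in replicate 3 of the control lineage at the high dose, as dcst1 did. Its neighbour dcst2 ranked 1295 in this order.

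For dcst2 those named are the centrosomal gene cep83 (r = 0.914), the deubiquitinase USP15 (0.887), the protein repair gene pcmt (0.84) and gnrh-r2 (0.836), all of which peaked, like dcst2, in replicate 1 of the control lineage at the low dose. For pgap1 they were znf131 (r = 0.791), si:ch211-212o1.2 (0.784), the sorting nexin snx21 (0.773), pwwp2b (0.772) and the adaptor nck2a (0.771). Several did not follow in the library set apart. There nosip had 3695 normalized reads and USP15 1668, near their highest elsewhere (3835 and 1693). The genes dcst1 and dcst2 were at their lowest. That library's normalized total was 36.9 M against 20.2 to 24.6 M in the others. The nearness to the highest thus depends on the size factor, and nosip and USP15 were not taken per M reads.

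**Figure D4:**
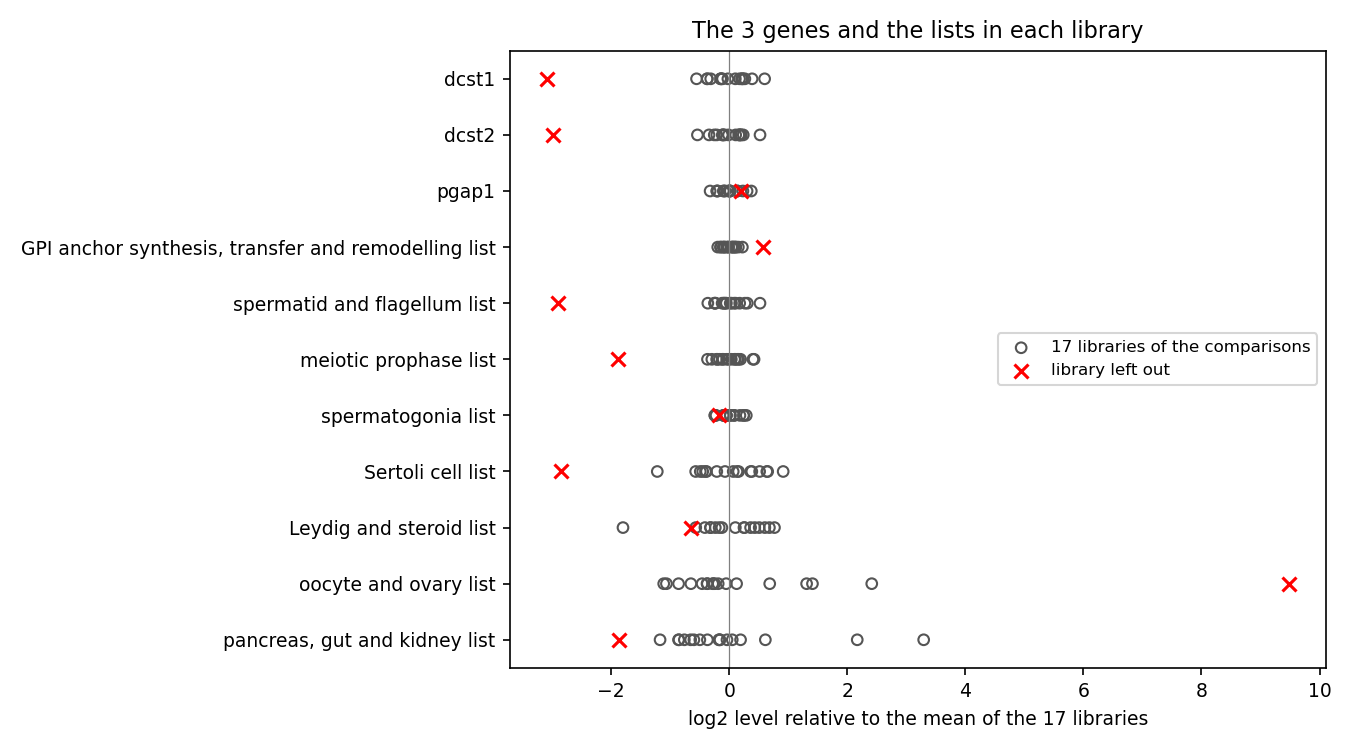
Log2 level relative to the mean of the 17 libraries compared (x axis) for the 3 genes and for the mean of each gene list (y axis); circles are those 17 libraries and the red cross is the library set apart. The cross lies at -3.09 and -2.98 for dcst1 and dcst2, at -2.90 for the spermatid and flagellum list and at 0.20 for pgap1, whose direction turns per M reads.

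In the library set apart dcst1 was at 12.0% and dcst2 at 12.7% of the median of the other 17, with 1360 and 1336 normalized reads from 1007 and 989 whole reads, and the ratio between them was 1.02. The normalized value of pgap1 was at 115% of the median, but this library's normalized total was 36.9 M against 20.2 to 24.6 M in the others. Per M reads pgap1 had 41.1 there, below the 47.4 to 79.3 of the other 17 and at 71.3% of their median, while dcst1 and dcst2 were at 6.70% and 7.48% of theirs. The spermatid and flagellum list was at -2.90 in the same library against -0.36 to 0.52 elsewhere, the meiotic prophase list (16 genes) at -1.88 against -0.37 to 0.42 and the oocyte and ovary list at 9.48 against -1.11 to 2.41. Lists of other cells were low as well: the Sertoli list was at -2.85 against -1.22 to 0.91, with 9 of 10 genes below all 17 libraries, and the pancreas, gut and kidney list was at -1.86 against -1.17 to 3.29. By normalized reads the means of the spermatogonia list (16 genes, -0.18) and the Leydig and steroid list (7 genes, -0.65) lay inside the range of the others, but their genes went both ways. All list levels depend on the size factor of this library, and they were not taken per M reads. The mean asked of tested genes also counted this library, so oocyte genes high only there could pass. Of the spermatogonia genes 7 were below and 6 above all 17 libraries, with 3 at 0, and of the Leydig genes 5 were below and 2 above. There is 1 such library, so no test was made.

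A list of 24 names was fixed for sperm-egg interaction, which again held dcst1, dcst2, spaca6 and izumo1. Of the 24 names 7 matched a row and 6 passed the filter on low values, dcst1 and dcst2 among them. The others were tetraspanins, membrane organizers of which CD9 and CD81 act on the mouse egg in fusion and which many cell types express. Mean levels over the 17 libraries were 8004 normalized reads for cd9b, 2444 for cd81a, 192 for cd9a and 51.9 for cd81b; spaca4l, at 9.83, did not pass the filter. Of these genes cd9a fell at the low dose in the control lineage, where 4.59% of all genes were called. There were no other calls for the list in the 9 comparisons, in which 0% to 14.2% of all genes were called. The gene cd9a had 667, 267 and 197 normalized reads without PFOS and 75.2 and 40.2 at the low dose. Its log2 difference was -2.55 ± 0.59 (adjusted p = 0.0314, limma). The 3 libraries without PFOS are those in which the gut and kidney markers given above were high, and the part of these markers in the call was not tested. That call was kept without unexposed replicate 2 and lost without unexposed replicate 3. It was also lost without unexposed replicate 1, the highest (adjusted p = 0.122, limma). The fits without replicate 1 or 3 at the low dose leave 1 library in that group, so only their differences are used. Over all 5 fits that leave out a compared library the log2 difference ran from -3.00 to -2.04. The call passed in 6 of the 8 other settings, and was lost with the groups compared alone (0.066). In the library set apart cd9a had 6.75 and cd9b 28853.

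The pathway in which pgap1 acts was followed through a list of 39 names of GPI anchor synthesis, transfer to protein and remodelling, of which 32 rows were found and 31 tested, pgap1 included. The 3 with the most reads, a count that also depends on transcript length, were the cargo receptors tmed2 (mean 6729 normalized reads) and tmed10 (3886), which carry GPI-anchored proteins out of the endoplasmic reticulum, and the first-step transferase subunit pigq (4281). At the low dose in the control lineage 1 of the 31 rose and 0 fell, where 4.59% of all genes were called, and the list's median was 0.29 against 0.01 over all genes. At the high dose 3 rose and 1 fell, where 12.8% of all genes were called, with a median of 0.24 against 0.03. Without PFOS 2 were higher and 0 lower in the BPA lineage, where 10.3% of all genes were called, with a median of 0.20 against 0.07. The interaction had 0 positive and 1 negative call at the low dose (median -0.37 against -0.05, with 0.899% of all genes called) and 1 positive and 2 negative at the high dose (-0.27 against -0.10, with 14.2% called).

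In the other 4 comparisons limma called 0 of the 31, with 2, 4, 1 and 1 at an unadjusted p under 0.05 for the BPA lineage at the low and the high dose and for the lineages at the low and the high dose. Over all genes 9.55%, 18.4%, 8.42% and 12.1% had one. There edgeR called 0 in each, and DESeq2 called 2 for the BPA lineage at the high dose and 0 in the others. The medians lay between -0.07 and -0.02 in these comparisons, against -0.06 to -0.02 over all genes. All comparisons in which limma called a gene of the list draw on the 3 control libraries without PFOS. In these the gut and kidney markers given above were high. The Sertoli and the Leydig and steroid markers were high there against the PFOS libraries of the control lineage, but overlapped with the BPA lineage. The part of these markers in the calls was not tested.

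**Figure D5:**
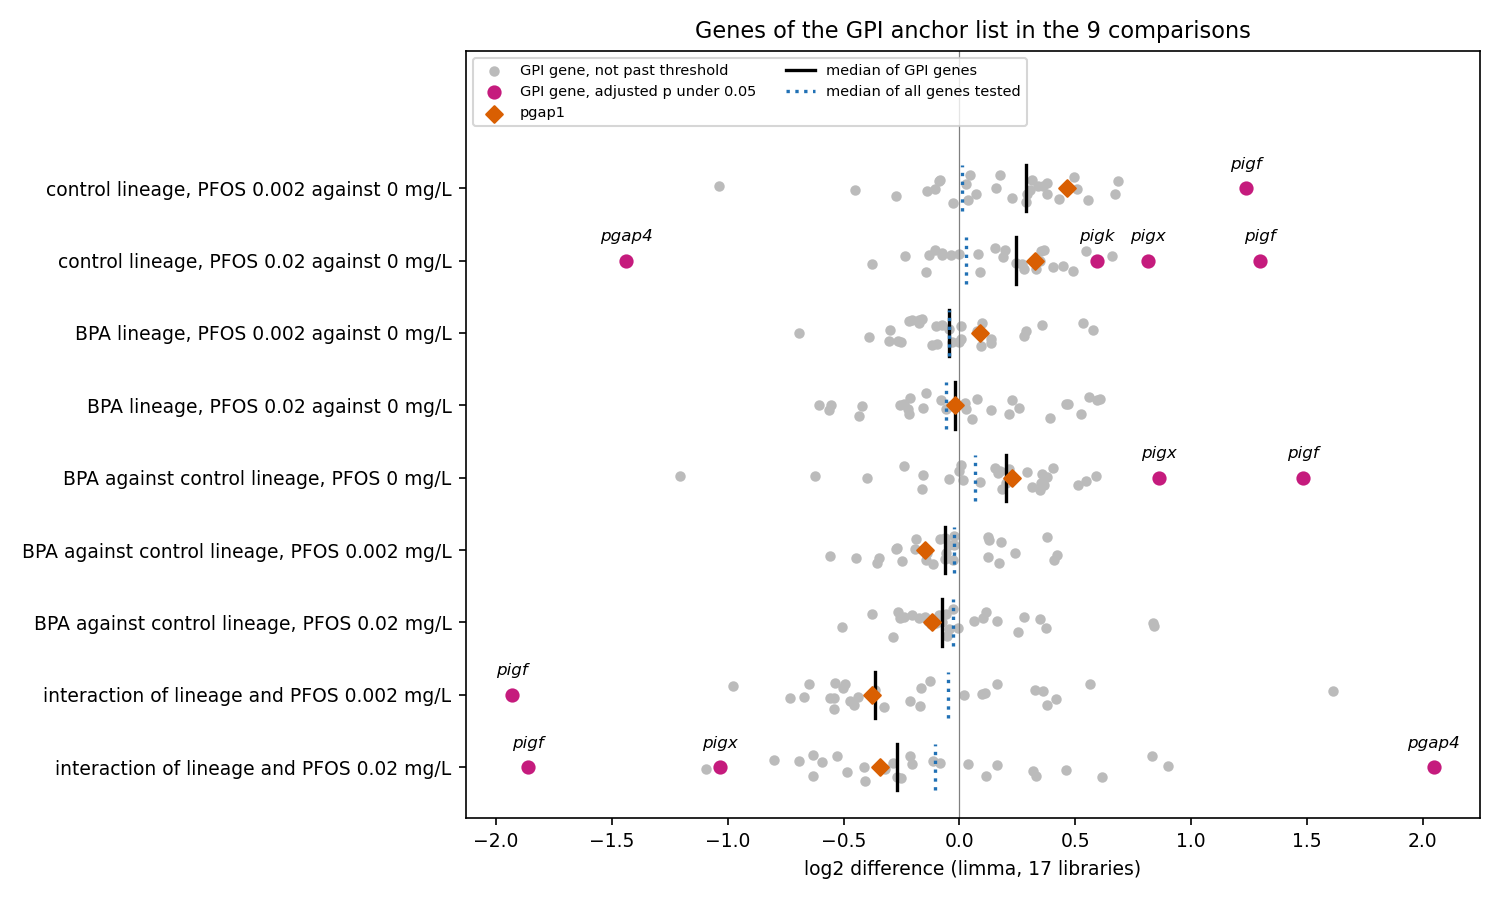
Log2 differences (x axis) of 31 genes of GPI anchor synthesis, transfer and remodelling in each of the 9 comparisons (y axis): grey points did not pass, magenta points had an adjusted p under 0.05 and are named, the orange diamond is pgap1, and the black and dotted blue lines are the medians of the list and of all genes tested. The magenta points of pigf lie at 1.24, 1.30, 1.48, -1.93 and -1.86 in the 5 comparisons where it passed.

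The gene pigf, which encodes a partner of the enzymes that add ethanolamine phosphate to the anchor, passed in 5 comparisons. In the control lineage it had 131, 164 and 178 normalized reads without PFOS, 316 and 432 at the low dose, and 447, 297 and 433 at the high dose. In the BPA lineage it had 474, 542 and 330 without PFOS, 264, 280 and 269 at the low dose, and 318, 219 and 376 at the high dose. The 3 unexposed control libraries were thus below all 14 others compared, a pattern noticed after the values were seen and shown by 2.9% of all genes. The log2 differences were 1.24 ± 0.30 at the low dose and 1.30 ± 0.27 at the high dose in the control lineage (adjusted p = 0.0374 and 0.0129, limma), and 1.48 ± 0.27 between the lineages without PFOS (adjusted p = 0.00633). The interactions were -1.93 ± 0.41 at the low dose and -1.86 ± 0.38 at the high dose (adjusted p = 0.046 and 0.00656).

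The lineage difference and the interaction at the high dose of pigf passed in each fit that left out 1 compared library, 6 and 12 fits, but not from 18 libraries (adjusted p = 0.113 and 0.107). Its rise at the high dose was lost without unexposed replicate 1 (0.0684), without replicate 3 at the high dose (0.0738) and from 18 libraries (0.138). The rise at the low dose passed from 18 libraries and in 2 of 5 fits, those without unexposed replicate 2 and without replicate 1 at the low dose, with an adjusted p of 0.407 without replicate 3 at the low dose; it was lost when the groups compared were fitted alone (0.0746). The interaction at the low dose passed without unexposed replicate 2 of the control lineage and without unexposed replicate 3 of the BPA lineage. It passed in no other fit that leaves more than 1 library in each group, nor from 18 libraries (0.0881) or with edgeR (0.0542). Over all 11 fits its value ran from -2.15 to -1.71.

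A comparable order was seen for pigx, whose product is a partner of the first mannosyltransferase. It had 446, 458 and 471 normalized reads in the unexposed control libraries, 800, 656 and 997 in the control lineage at the high dose, and 940, 784 and 782 in the unexposed BPA lineage. The differences from the unexposed controls were 0.81 ± 0.23 and 0.86 ± 0.23 (adjusted p = 0.0331 and 0.0283, limma), and the interaction at the high dose was -1.03 ± 0.32 (adjusted p = 0.0423). Each of the first 2 calls was kept in 1 of 6 fits without a compared library, that without replicate 2 at the high dose and that without replicate 3 of the BPA lineage. The interaction passed in 3 of 12, those without replicate 2 of the control lineage at the high dose and without replicate 3 of the BPA lineage, unexposed or at the high dose. From 18 libraries the adjusted p of the 3 were 0.339, 0.33 and 0.385, and the interaction was also lost without the filter (0.0508), with edgeR (0.0566) and with the groups alone (0.0785).

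The transamidase subunit pigk rose by 0.59 ± 0.18 at the high dose in the control lineage, from 1073 ± 176 to 1605 ± 8.63 (adjusted p = 0.0388, limma), a call kept in 1 of 6 fits, that without unexposed replicate 3, and lost under TMM scaling (0.0509), with edgeR (0.0552), with the groups compared alone (0.0563) and from 18 libraries (0.446), among 5 of 8 other settings. The Golgi enzyme gene pgap4, which adds a side-chain sugar to the anchor, fell in the same comparison, from 429, 407 and 435 to 125, 250 and 120 normalized reads (-1.44 ± 0.44, adjusted p = 0.0434). Its interaction was 2.05 ± 0.63 (adjusted p = 0.039), with 117, 104 and 500 normalized reads in the unexposed BPA lineage and 275, 316 and 252 at the high dose. The fall was kept in 1 of 6 fits, that without replicate 2 at the high dose, and the interaction in 3 of 12, those without that library and without replicate 3 of the BPA lineage, unexposed or at the high dose. From 18 libraries neither passed (0.315 and 0.3), nor with edgeR (0.0666 and 0.118), and the interaction did not pass with DESeq2 (0.0656) or with the groups alone (0.0816); of 8 other settings the fall passed in 5 and the interaction in 3. In the library set apart pigf had 1259, pigx 3032, pigk 6204 and pgap4 20.3 normalized reads. Of the 31 genes of the list 18 were above and 5 below all 17 other libraries there, so such values were not particular to the genes called. They also depend on the size factor of that library.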

How the data were processed

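The deposited table holds 1 column of signal per library, in which the authors had scaled the reads of each gene by that library's size factor. Per the submitters' processing notes fastp 0.23.2, STAR 2.7.7a and DESeq2 1.34.0 were used; for the build, the annotation, the read counter and strandedness nothing is stated in the labels. Within a tolerance of 0.01, 100% of values came out as whole reads when divided by the worth of 1 read in that library: at least 10449 for dcst1 and dcst2 and 1305 for pgap1 in the 17 libraries compared, so replicate spread, not counting, limits precision.

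Genes with a mean of at least 10 over the 18 libraries (18792) were fitted with limma 3.58.1 (R 4.3.3) on log2(value + 1), with 6 group means, trend and robust moderation, on 17 libraries. Tests were two-sided, with Benjamini-Hochberg adjustment over all genes and a threshold of 0.05. Nothing in the labels says whether replicates were separate tanks. Correlations used 100000 permutations (numpy 2.4.6).

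All values of the 3 members are given; of the GPI list those that passed and the 3 most abundant are named, and the 5 genes most like each member, of which 1 is not reported here. The members and lists were chosen with earlier results of these data known. Alternatives were 18 libraries, a pseudocount of 5, no filter, TMM scaling, the groups compared alone, the replicate number as a block, edgeR 4.0.16, DESeq2 1.42.0 and leaving out each library; reads per M (counts per megaread, the recovered reads over the library total) were added after the data were seen. On the recovered reads edgeR called 691, 2300, 0, 0, 2061, 0, 3, 57 and 2526 genes in the control lineage at the low and high dose, in the BPA lineage likewise, between the lineages without PFOS and at the low and high dose, and for the interaction at the low and high dose. The fit was tested on simulated data.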

Additional observations from a re-analysis of the deposited data

Results flagged for a closer look

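In replicate 2 of the control lineage at the low dose, which enters no comparison, pgap1 had 1518 normalized reads, above the highest of the 3 unexposed control libraries (1156). Per M reads it had 41.1, below all 3 of those libraries (47.4 to 57.3), so the direction depends on the size factor. The normalized value lay between the 1457 and 1631 of the other replicates of its group. The groups of 3 are too small for a test of single libraries that stand apart.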

How the results depend on the processing

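Over 405 alternatives for the 27 results of the 3 genes, 380 kept direction and side of the threshold, 24 changed sign with none of those passing, and 1 newly passed. Some alternatives could not change a direction. Fits without the filter or with the groups alone leave the log2 difference as it was. So does the use of 18 libraries where the control lineage at the low dose is not compared. The count of 380 is therefore no measure of stability. With all 18 libraries the log2 differences at the low dose turned to -0.62 (dcst1) and -0.71 (dcst2) in the control lineage, 0.77 and 0.86 between the lineages, and 0.55 and 0.80 for the interaction. Under TMM scaling, edgeR and DESeq2 the value of dcst2 at the high dose in the control lineage was -0.011, -0.0091 and -0.016, that of dcst2 between the unexposed lineages -0.0079, -0.014 and -0.018, and that of pgap1 at the high dose in the BPA lineage 0.0097, 0.0055 and 0.011. Leaving out 1 library gave, for these in turn, -0.084 to 0.17, -0.043 to 0.18 and -0.11 to 0.058. For the BPA lineage at the low dose it gave -0.18 to 0.030 (dcst1) and -0.062 to 0.17 (pgap1), and for the dcst1 interaction at the high dose -0.92 to -0.51. The cause was not tested.

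For the correlations, 18 libraries gave r = 0.946 between dcst1 and dcst2, -0.109 and -0.172 for pgap1 with dcst1 and dcst2, and 0.88, 0.914 and -0.214 for the spermatid list with dcst1, dcst2 and pgap1. Deviations from group means (17 libraries) gave 0.469 for dcst1 and dcst2, -0.126 and -0.231 for pgap1 with each, and -0.0909, 0.0378 and -0.0811 for the list. Without the 2 farthest libraries r was 0.752, 0.419 and 0.137 between the genes and 0.323, 0.624 and -0.0149 for the list.

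Limma called 863, 2409, 0, 77, 1927, 0, 4, 169 and 2674 genes in the control lineage at the low and high dose, in the BPA lineage likewise, between the lineages without PFOS and at the low and high dose, and for the interaction at the low and high dose. With 18 libraries these counts, in the same order, were 1476, 13, 0, 0, 4, 0, 3, 0 and 261, with DESeq2 2511, 3802, 23, 1096, 3360, 118, 161, 1676 and 3830, and with the groups compared alone 156, 1657, 5, 4, 1892, 29, 2, 1853 and 1507. Without the filter the 77 and the 169 became 31 and 90. The replicate block gave 0 of 27 member tests passing, with a lowest adjusted p of 0.176, and 261, 1640, 0, 0, 1445, 0, 4, 7 and 2162 genes called. Of 40 correlations between same-numbered libraries, which ran from -0.20 to 0.31, 4 were over 0.1. Their mean was -0.022, against 0.011 between libraries of different number. These are correlations of deviations from group means, which sum to 0 within each group. The mean for different numbers is thus tied to that for the same number and adds no separate evidence. The numbers were not taken as pairs in the main fit. Single pairs of groups differed from the mean of the same-numbered libraries. Between the lineages at the high dose the same-numbered libraries gave 0.23, 0.31 and 0.09. Between the unexposed control lineage and the BPA lineage at the high dose they gave -0.20, -0.03 and -0.10. The block ended the calls of cd9a (adjusted p = 0.0532), pigk (0.0526), the pgap4 fall and interaction (0.0621 and 0.0568) and pigf at the low dose and its interaction there (0.0668 and 0.076). Per M reads, an alternative chosen after seeing the data, the library set apart had 71.3% of the median of the others for pgap1, against 115% with size factors.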
